A study of Mus musculus with 3 samples.

Results

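tRNA-Glu-CTC is the glutamate tRNA whose anticodon, written 5′ to 3′ as DNA, is CTC and which reads the codon GAG. Its members here are the rows of the deposited tables whose gene name starts with tRNA-Glu-CTC-, 14 of the 446 tRNA genes counted, and all 14 also appear in the tables of fragment lengths of each of the 3 libraries. The libraries hold small RNA of 15 to 50 nt cut from a gel, from the epididymis of mice, without treatment. One library was labelled wild type, and 2 were labelled Alkbh3-/-, lacking the demethylase ALKBH3, and are called A and B here because their column names match no replicate number of the labels. The sources used here do not give the age or strain of the animals, or whether the libraries came from separate ones. The wild type columns alone carry the prefix B6, so whether the genotypes share a genetic background is unknown. The p-values below therefore speak only of the spread among these libraries, which may be technical. With 1 library against 2, an exact permutation test of a single value cannot go below p = 0.33. Alkbh3 itself and markers of the epididymis are mRNAs and were not analysed here, so neither the genotype nor the tissue was checked against the RNA. In bulk tissue, fewer cells of a type and less RNA per cell cannot be told apart.

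In the epididymis, the coiled duct where sperm mature, much of the small RNA consists of tRNA fragments. They arise when nucleases such as angiogenin cut mature tRNA, often in the anticodon loop, and the 5′ pieces of Glu-CTC and Gly-GCC are among the fragments known to be abundant in mouse sperm and in the vesicles that the epididymal epithelium passes to them. ALKBH3 takes methyl marks off adenosine and cytidine and is known to act on tRNA, and methylated bases can stop the reverse transcriptase used in library making, so a read count depends on both the amount of a fragment and its modification. Numbers in a tRNA gene name give first the set of genes with one mature sequence and then the copy within that set. Reads of copies within a set therefore cannot be assigned to one gene by sequence, and the sources used here do not say how the authors divided them.

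The assigned reads of 5 RNA classes summed to 15107055 in wild type, 15411457 in A and 21169908 in B, and these sums served as library size for RPM, read counts scaled to a common library size. The tRNA class held 44.7%, 36.5% and 38.1% of them, and the miRNA class 15.1%, 24.8% and 30.7%, in the same order. The larger miRNA share went with the Alkbh3-/- label. With miRNA left out of the library size, an alternative chosen after seeing the data, the log2 difference of Glu-CTC given below as 0.86 was 1.11 (adjusted p 0.047 by edgeR, over its alternatives 8.6e-09 to 0.047). Libraries A and B were not 1 library deposited in duplicate, since their Glu-CTC reads over 48 combinations of length and end class differed by a chi-square of 875 per degree of freedom.

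Glu-CTC reads were higher in both Alkbh3-/- libraries. The gene count table gave 467084 Glu-CTC reads in wild type, 840178 in A and 1217361 in B. In RPM these were 30918 in wild type against 54516 and 57504. Both Alkbh3-/- values lay above wild type, and the gap to the nearer of them was many times the distance between A and B. The fitted log2 difference of Alkbh3-/- from wild type was 0.86 (SE 0.13), with an adjusted p of 1.0e-06 by edgeR's quasi-likelihood test over 46 isoacceptors. Prior degrees of freedom, which set how far edgeR pools the spread over features, were infinite in this fit. That p therefore rests on a spread pooled over the isoacceptors, not on the spread of Glu-CTC between A and B. The SE, here and below, is the size of the log2 difference divided by the square root of the test's F statistic. It rests on the same spread as the p-value and adds nothing to it. Of those isoacceptors 23.9% passed the threshold of 0.05, 6.52% in the higher and 17.4% in the lower direction, and the median log2 difference was -0.26. With library sizes from the tRNA gene counts that median was 0.01 and Glu-CTC stood at 1.12. A change of library size moves all isoacceptors nearly alike, so it cannot test the place of Glu-CTC above the median isoacceptor.

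Within the tRNA gene counts, Glu-CTC made up 11.6% in wild type, 25.2% in A and 25.5% in B. Set against the tRNA class total, there were 69.2 Glu-CTC counts per 1000 tRNA reads in wild type, against 149 and 151. The tables of fragment lengths assign more reads than the count table, 753116, 1330572 and 1944215 for Glu-CTC. That is 1.61, 1.58 and 1.60 fragment reads per count, and the ratio for all tRNA genes was 1.61, 1.58 and 1.59. The excess was thus alike in the 3 libraries, and the reason for it is not stated.

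The gene copies fell into one abundant set and 5 scarce single genes. Set 1, with copies 1-1 to 1-9, held 99.6% of the Glu-CTC counts in wild type and 99.7% in each Alkbh3-/- library. Copies 1-1 to 1-4 lie within a short stretch of chromosome 1 in mm10, each with Asp-GTC, Gly-TCC and Leu-CAG genes within 5000 bp. The first of these, tRNA-Glu-CTC-1-1 (chr1:171064164-171064235, minus strand), is intronic to Fcgr3, an Fc receptor gene on the same strand. The others of set 1 are intergenic, among them tRNA-Glu-CTC-1-7 on chromosome 10, and tRNA-Glu-CTC-1-6 on chromosome 3, which lies 621 bp from Acp6, the nearest protein-coding gene.

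The copy with the most counts, tRNA-Glu-CTC-1-7 (chr10:30811140-30811211, plus strand), had 62165 counts in wild type, 111451 in A and 160396 in B. Next by wild type counts was tRNA-Glu-CTC-1-4 (chr1:171103043-171103114, plus strand), with 61434, 110651 and 158545. tRNA-Glu-CTC-1-6 (chr3:97158085-97158156, plus strand) had 61388, 110719 and 159512, more than tRNA-Glu-CTC-1-4 in A and B. These 3 plus-strand copies of set 1 lay close together in every library. tRNA-Glu-CTC-1-5 (chr3:96501447-96501518, minus strand) had 47084, 84829 and 123505 counts. tRNA-Glu-CTC-1-1 had 46861, 84369 and 123193. Both belong to the 6 minus-strand copies, which ranged from 46216 to 47084 in wild type.

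All 9 copies of set 1 rose, with log2 differences of 0.85 to 0.88 and adjusted p of 0.023 to 0.032 by edgeR's quasi-likelihood test over 367 copies. Over all copies tested, 9.81% passed, 2.45% in the higher and 7.36% in the lower direction, so the 9 copies of set 1 were all of the copies called higher. The median log2 difference over all copies was -0.15. Because the 9 share a mature sequence, their tests are not independent of each other. With library size taken without miRNA, 0 of the 9 passed in edgeR, with log2 differences of 1.10 to 1.12 and adjusted p of 0.062 to 0.071, although 9 had an unadjusted p under 0.05. DESeq2 called all 9. Over the alternatives of these copies the adjusted p ran from 4.7e-06 to 0.071.

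**Figure D1:**
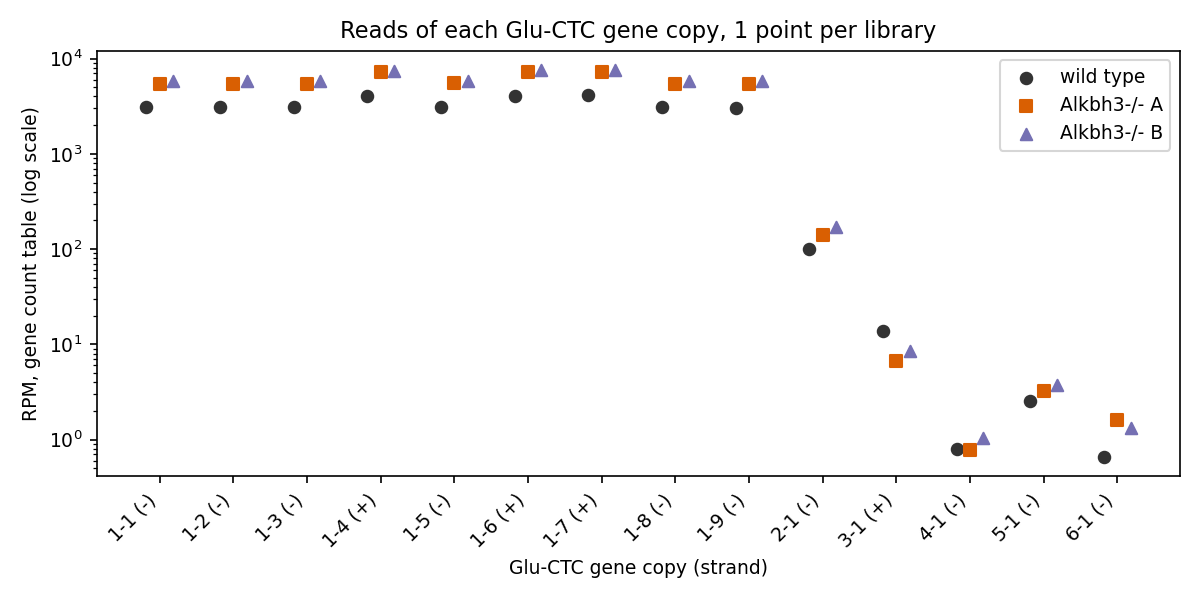
RPM (log axis) of the 14 Glu-CTC gene copies in the gene count table, 1 point per library, with the strand of each gene in brackets. The 9 copies of set 1 lie at 3059 RPM or more in wild type and higher in both Alkbh3-/- libraries, and tRNA-Glu-CTC-3-1 is lower in both (13.9 against 6.68 and 8.60 RPM).

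The other 5 copies did not pass the test. The values of tRNA-Glu-CTC-2-1 and tRNA-Glu-CTC-3-1 are singled out here after they were seen. tRNA-Glu-CTC-2-1, at chr17:56092001-56092072 on the minus strand within an intron of Hdgfl2, a gene on the plus strand, had 1520, 2159 and 3589 counts in wild type, A and B, or 101, 140 and 170 RPM. Its log2 difference was 0.64 (SE 0.51, adjusted p 0.79 by the same edgeR test). Both Alkbh3-/- values exceeded wild type, but the log2 difference was little above the SE worked back from its test.

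tRNA-Glu-CTC-3-1 (chr12:24467219-24467293, plus strand) is the one copy annotated at 75 nt rather than 72 nt, and lies 31066 bp from Taf1b. It had 210 counts in wild type, 103 in A and 182 in B, which is 13.9 RPM against 6.68 and 8.60. It is the one copy below wild type in both Alkbh3-/- libraries, with a log2 difference of -0.83 (SE 0.24, adjusted p 0.14, edgeR). Requiring 50 reads in each library, which leaves 219 copies to test, brought that adjusted p to 0.0052 by edgeR. This filter also raised the prior degrees of freedom from 3.50 to 72.3, so the spread was pooled more strongly over copies. Over the alternatives the adjusted p of tRNA-Glu-CTC-3-1 ran from 0.0052 to 0.52.

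The least abundant copies were tRNA-Glu-CTC-6-1 (chr8:36526026-36526097, minus strand), with 10, 25 and 28 counts, and tRNA-Glu-CTC-4-1 (chr12:42415075-42415146, minus strand), with 12, 12 and 22. tRNA-Glu-CTC-5-1 (chr7:99543900-99543971, minus strand), in an intron of Arrb1, a plus-strand gene for an arrestin, had 38, 50 and 80 counts. Their log2 differences were 1.12 for tRNA-Glu-CTC-6-1, 0.22 for tRNA-Glu-CTC-4-1 and 0.50 for tRNA-Glu-CTC-5-1. None of the 3 passed, with adjusted p of 0.48 to 0.98 by edgeR. In all, 12 of the 14 copies were higher in both Alkbh3-/- libraries than in wild type, 1 was lower in both and 1 lay between. Of the 367 copies tested, 22.1% were higher in both and 47.4% lower in both.

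Within set 1, copies on the plus strand were assigned more reads than copies on the minus strand. How reads of this one mature sequence were divided among its copies is not stated. The mean of the 3 plus-strand copies was 1.32 times that of the 6 minus-strand copies in wild type, 1.32 in A and 1.30 in B. In the tables of fragment lengths the same ratio was 1.36, 1.35 and 1.34. The 2 ranges did not overlap in any library, and the ratio varied little between genotypes.

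The strand ratio differed between fragment lengths. It was 1.22, 1.12 and 1.18 at 27 nt in wild type, A and B, 1.32, 1.30 and 1.29 at 31 nt, and 1.55, 1.55 and 1.52 at 32 nt. From 27 to 36 nt the ratio went up and down at the same lengths in the 3 libraries. The source of the strand difference was not tested.

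**Figure D2:**
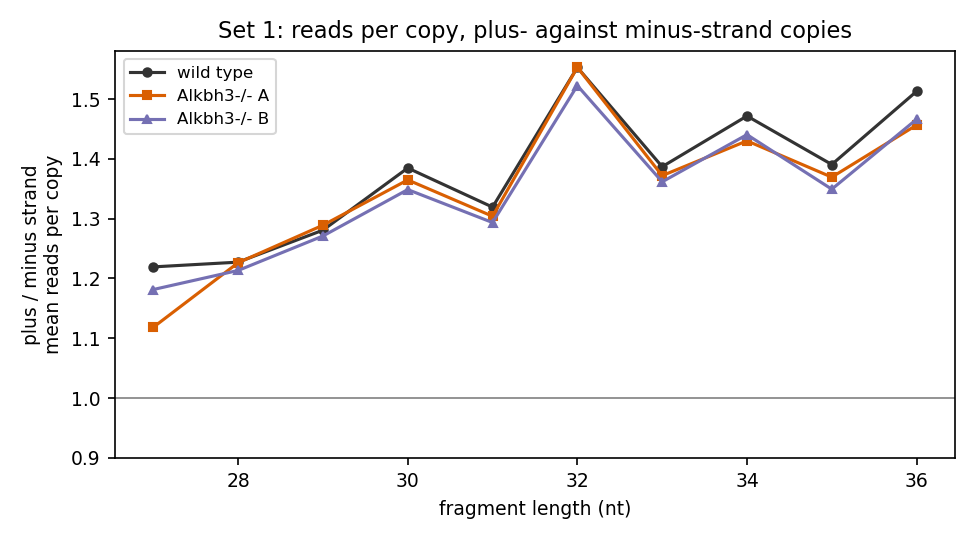
Mean reads per plus-strand copy divided by mean reads per minus-strand copy within set 1 of Glu-CTC, by fragment length in nt, 1 line per library. The lengths drawn are 27 to 36 nt. All points lie above 1, and over these lengths each library has its highest point at 32 nt (1.55 in wild type).

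Each table of fragment lengths divides the reads of a gene into 2 end classes that carry no name. The first class held 752772 of the 753116 Glu-CTC reads in wild type, 1330068 of 1330572 in A and 1943313 of 1944215 in B. Glu-CTC reads were therefore almost wholly of one class, and the lengths below are of that class unless stated. Shares are of all Glu-CTC reads of a library. Their exact Clopper-Pearson 95% intervals, for lengths of 28 to 36 nt, were at most 0.223 percentage points wide, and these intervals cover counting error only, since PCR copies are not independent molecules.

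The lengths formed a main peak at 31 nt and a second peak at 33 nt, with fewer reads at 32 nt than at either. The 31 nt fragment had 320490 reads in wild type, 417501 in A and 752380 in B. It was the most frequent length in every library, at 42.6%, 31.4% and 38.7%. The 33 nt fragment was next, except that 30 nt exceeded it in wild type.

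The fragments of 33, 34 and 35 nt rose in Alkbh3-/-. At 33 nt there were 118043 reads in wild type, 342130 in A and 376075 in B, or 7814, 22200 and 17765 RPM. Both Alkbh3-/- values were more than 2 times wild type, and A was above B. The log2 difference was 1.35 (SE 0.23, adjusted p 1.8e-06 by edgeR's quasi-likelihood test over 572 fragments of all isoacceptors). Here a fragment is an isoacceptor, a length and an end class with at least 10 reads in each library. In this fit too the prior degrees of freedom were infinite, so the spread was pooled over all fragments.

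The 34 nt fragment showed the greatest difference of the lengths above 1% of Glu-CTC reads. It had 29156 reads in wild type, 129782 in A and 131417 in B. In RPM it was 1930 in wild type against 8421 and 6208, with no overlap. Its log2 difference was 1.92 (SE 0.32, adjusted p 1.3e-06, edgeR).

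At 35 nt the reads numbered 38229, 99558 and 121616, and the RPM were 2531, 6460 and 5745. The log2 difference was 1.27 (SE 0.32, adjusted p 0.0062, edgeR). This call was lost when fragments of any depth were tested (adjusted p 0.13) and with library size taken without miRNA (0.053), and over its alternatives the adjusted p ran from 5.6e-05 to 0.13. The calls at 33 and 34 nt passed under all 8 settings tested.

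The other lengths above 1% were higher in both Alkbh3-/- libraries too but did not pass. For 31 nt, at 21215 RPM in wild type against 27090 and 35540, the log2 difference was 0.56 (SE 0.19, adjusted p 0.10, edgeR). For 30 nt, at 8242 RPM against 10159 and 11726, it was 0.41 (SE 0.25, adjusted p 0.62). The 32 nt fragment had 1933, 3488 and 4384 RPM, a log2 difference of 1.03 (SE 0.35, adjusted p 0.11). Lengths of 28, 29 and 36 nt had log2 differences of 0.48, 0.59 and 0.89.

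Of the 40 Glu-CTC fragments that could be tested, 3 were called, all higher, and the median log2 difference was 0.91. Over all 572 fragments 2.27% were called, 1.22% in the higher and 1.05% in the lower direction, and the median was -0.03. Of the 32 tested lengths of the first class, 31 were higher in both Alkbh3-/- libraries and 0 were lower in both. Over all fragments tested, 32.5% were higher in both and 42% lower in both. The 32 lengths passed a minimum in every library and are not all the lengths seen, which were 46, from 16 to 64 nt.

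**Figure D3:**
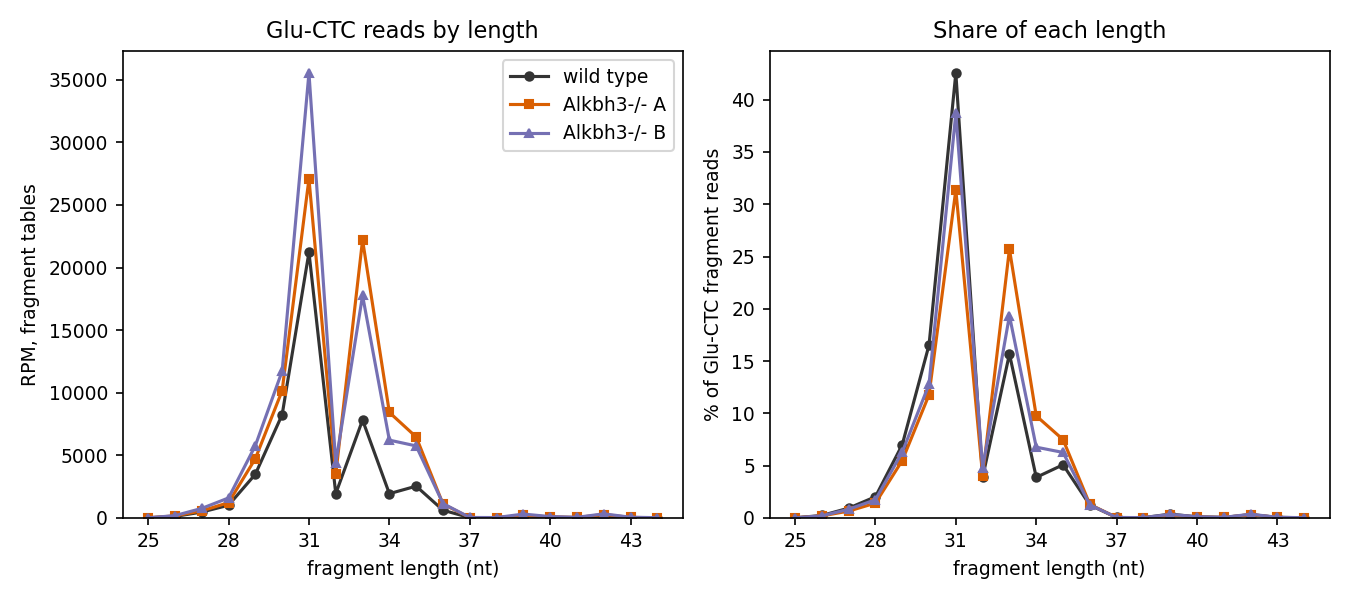
Glu-CTC reads of the first end class by fragment length in nt, as RPM on the left and as percent of each library's Glu-CTC reads on the right, 1 line per library. The 33 nt point rises from 7814 RPM in wild type to 22200 and 17765, while the share at 31 nt goes from 42.6% to 31.4% and 38.7%.

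Much of the added Glu-CTC signal lay at these 3 lengths in A and less in B. Lengths of 33 to 35 nt supplied 68.0% of the RPM gained over wild type by A and 41.6% of that gained by B. They are the lengths called above in these same libraries, so their large share is not a separate result. The 31 nt length supplied 16.1% and 34.1%. Against wild type, the RPM of 33 to 35 nt was 3.02 times as high in A and 2.42 times in B, and that of 31 nt 1.28 times and 1.68 times. The 2 Alkbh3-/- libraries thus had near-equal Glu-CTC totals but placed the gain at different lengths.

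To ask whether a length differed by more or less than Glu-CTC as a whole, each fragment's log2 difference was set against that of its isoacceptor with edgeR's diffSpliceDGE. One of 40 Glu-CTC fragments passed, the 34 nt fragment, whose difference was 1.08 above that of Glu-CTC (adjusted p 4.0e-05). Over all 568 fragments tested this way 3.87% passed, 3.35% above and 0.528% below their isoacceptor. The call was lost when 50 reads were required in each library (adjusted p 1.0) and with edgeR's older quasi-likelihood method (0.22), and the range over its alternatives was 9.3e-06 to 1.0. The 33 nt fragment stood 0.52 above Glu-CTC (adjusted p 0.066) and the 35 nt fragment 0.43 above it (0.20). The 30 nt fragment stood at -0.43 (0.16) and the 31 nt fragment at -0.28 (0.48) relative to Glu-CTC.

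**Figure D4:**
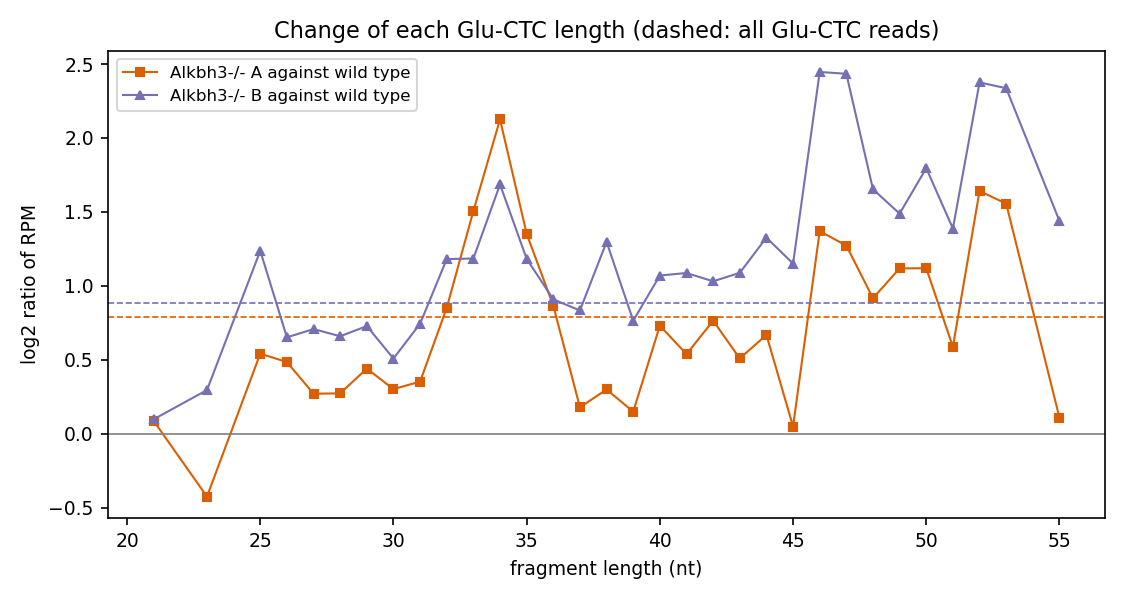
Log2 ratio of RPM in each Alkbh3-/- library to wild type for each Glu-CTC length of the first end class with at least 10 reads in every library, in nt. Dashed lines mark the ratio over all Glu-CTC reads, and the 33, 34 and 35 nt points lie above their dashed line in both libraries.

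Shares within Glu-CTC differed from wild type in the same direction in A and in B, but A and B often lay as far from each other as from wild type. The share of 33 nt was 15.7% in wild type, 25.7% in A and 19.3% in B. The share of 34 nt was 3.87%, 9.75% and 6.76%. There were 0.369 reads of 33 nt per read of 31 nt in wild type against 0.820 and 0.500. For these 3 measures, as for the shares of 31 and 35 nt, the distance between A and B exceeded that from wild type to the nearer of them.

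For 4 measures the distance from wild type was the larger one. The share of 26 to 30 nt was 26.7% in wild type, 19.5% in A and 21.8% in B. The 30 nt share alone was 16.5%, 11.8% and 12.8%. Fragments of 34 nt and longer took 11.2%, 19.4% and 15.4%, and the mean length was 31.42, 31.99 and 31.72 nt. In the last 2 measures the margin was slim, since the distance to the nearer Alkbh3-/- library was 4.19 points against 4.01 between A and B for 34 nt and longer, and 0.299 nt against 0.279 nt for mean length.

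The 9 copies of set 1 had nearly one length profile. In wild type their shares at 31 nt ran from 41.9% to 43.6% and at 33 nt from 15.4% to 16.0%. In library A the 33 nt shares ran from 25.4% to 26.1%, and in B from 18.9% to 19.7%. Each copy thus showed the same order of the 3 libraries, and because the copies share a mature sequence this is not independent repetition.

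Most of the scarce copies peaked at a length other than that of set 1. tRNA-Glu-CTC-2-1 peaked at 27 nt, with 56.1% of its first-class reads there in wild type, 46.6% in A and 54.0% in B. It held 0.353% of all first-class Glu-CTC reads in wild type but 21.3% of those of 27 nt, 1488 of 6970 (exact 95% interval 20.4 to 22.3%). In A and B it held 19.9% and 21.0% of them. Its reads of 33 nt per read of 31 nt were 0.371, 0.929 and 0.567, in the same order as in set 1, on 151, 435 and 479 reads of 33 nt. How reads that match both this copy and set 1 were assigned is not known. The shared order therefore cannot be taken as independent repetition.

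A minor length of 49 nt was also overrepresented in tRNA-Glu-CTC-2-1. Of the 294 Glu-CTC reads of 49 nt in wild type it had 33, or 11.2% (exact 95% interval 7.85 to 15.4%). Libraries A and B gave 10.8% and 9.95%. All 3 values were far above its share of Glu-CTC reads as a whole.

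tRNA-Glu-CTC-3-1 peaked at 36 nt, at 72.2%, 45.3% and 62.9% of its first-class reads in wild type, A and B, from 226, 73 and 173 reads. It was thereby 2.46% of the Glu-CTC reads of 36 nt in wild type and 0.427% and 0.716% in A and B. tRNA-Glu-CTC-5-1 peaked at 30 nt (65.2%, 68.6% and 59.3% of its reads). For tRNA-Glu-CTC-6-1 the most frequent length was 27 nt in all 3 libraries, on 18, 44 and 49 reads. tRNA-Glu-CTC-4-1 had 21, 22 and 41 reads, spread over 21 to 31 nt for the most part, too few to rank its lengths.

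**Figure D5:**
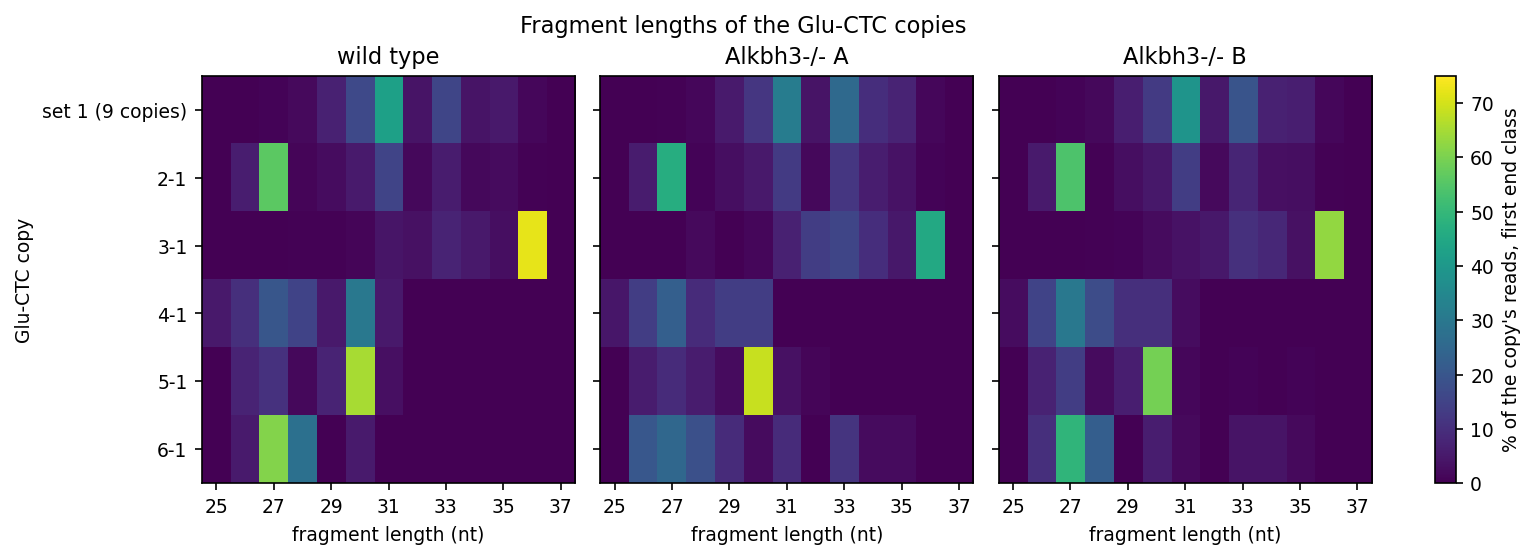
Percent of the first-class reads of set 1 (9 copies together) and of each other Glu-CTC copy at fragment lengths of 25 to 37 nt, 1 panel per library, with color for the percent. Set 1 peaks at 31 nt, tRNA-Glu-CTC-2-1 at 27 nt, tRNA-Glu-CTC-3-1 at 36 nt and tRNA-Glu-CTC-5-1 at 30 nt in every library.

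The second end class was rare for Glu-CTC, with 344 reads in wild type, 504 in A and 902 in B. Its lengths gathered at 33 to 36 nt, which made up 50.3%, 68.3% and 61.1% of the class. At 33 nt it had 70, 128 and 225 reads, and at 34 nt 56, 103 and 181. A smaller group lay near 20 nt, with 43, 31 and 96 reads at that length. Of its 8 lengths tested, 4 were higher in both Alkbh3-/- libraries and 0 were lower in both. The shares over all 572 fragments tested were 32.5% and 42%. edgeR called 0 of the 8 lengths, against 2.27% of all fragments, with an unadjusted p under 0.05 for 0 of the 8, or for 3 with TMM scaling. DESeq2 also called 0.

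Longer first-class fragments were few. At 39 nt there were 2683, 3036 and 6387 reads in wild type, A and B, and at 42 nt 2360, 4090 and 6758. Reads over 50 nt, outside the excised range, numbered 80, 175 and 439 of all Glu-CTC reads. Lengths of 46 to 53 nt had log2 differences between 1.09 and 2.09, and none was called, with adjusted p of 0.24 or more by edgeR.

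Among isoacceptors with at least 1000 reads in every library, the log2 RPM ratios of A and B to wild type were 0.82 and 0.90 for Glu-CTC. The nearest of the 20 others was Glu-TTC, the glutamate tRNA for the codon GAA, at 0.48 and 0.74. Then came Ala-CGC at 0.29 and 0.43 and Leu-TAG at 0.13 and 0.18. Likeness was measured as the larger of the distances in the 2 libraries, which share the wild type library as control, and it describes these libraries only.

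Glu-TTC was higher in both Alkbh3-/- libraries, at 1745 RPM in wild type against 2428 and 2919, but its log2 difference of 0.64 (SE 0.68) had an adjusted p of 0.61 by edgeR. Its lengths differed from those of Glu-CTC. The most frequent was 34 nt (36.5%, 46.2% and 42.6% of its reads), and it had 0.829, 0.882 and 0.900 reads of 33 nt per read of 31 nt. Its reads of 34 nt and longer made up 49.5%, 58.0% and 54.7%. The wild type length distributions most like that of Glu-CTC were those of Pro-TGG, Pro-CGG and Gly-GCC, with 76.2%, 75.4% and 68.8% of reads in common over lengths, of 23 isoacceptors compared.

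The shift in Glu-CTC lengths was set beside that of the other isoacceptors as a description. The fold of the ratio of 33 to 31 nt reads over wild type was 2.22 in A, the highest of the 23 isoacceptors that had a ratio there, and 1.36 in B, where it ranked 7 of 24. The median fold over isoacceptors was 1.38 in A and 1.10 in B. Among the 3 isoacceptors nearest in length profile, Gly-GCC had folds of 2.01 in A and 2.46 in B. Those of Pro-CGG were 1.52 and 0.96, and those of Pro-TGG 1.15 and 0.73. The highest fold in B was that of Gly-CCC, 2.67, with 1.91 in A. A higher ratio of 33 to 31 nt reads was thus not particular to Glu-CTC. Reads of 34 nt and longer gained 8.20 percentage points in A and 4.19 in B, rank 3 of 24 in each, against medians of -0.60 and -0.35.

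Glu-CTC was one of 9 isoacceptors listed as known parents of long 5′ fragments. Of the 9, 2 passed, against 23.9% of all 46 isoacceptors, so the share in the list was near that of the whole. Glu-CTC rose and Gly-GCC, the most abundant at 189621 RPM in wild type, fell by 0.54 on the log2 scale to 127993 and 132775 RPM (SE 0.05, adjusted p 2.2e-12, edgeR). That call was lost with library size taken without miRNA (-0.29, adjusted p 0.55, edgeR) and with DESeq2 (-0.22, adjusted p 0.69), while its sign was negative under every setting tried (adjusted p 1.1e-12 to 0.69). The other 7 did not pass, Gly-CCC being the nearest at -0.61 (adjusted p 0.086). The median of the list was -0.26, equal to that of all isoacceptors. Gly-GCC lost share of the tRNA counts, 71.4% to 59.1% and 59.0%, while Glu-CTC gained it, and within one total these shares are not independent.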

How the data were processed

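Small RNA (15 to 50 nt, gel-cut from 100 μg total RNA, ligation-based kit, per the labels' protocols) from epididymis was counted by the authors. Deposited raw read counts were used of 5 RNA classes, of 446 tRNA genes, and of reads per length in 2 unnamed end classes for each gene and library. Cutadapt and mm10 are named, without versions or roles, in the submitters' processing notes, and the sources used here do not give the aligner, the counter or the handling of multiply matching reads. The 6 other value columns were not used. Small shifts of the gel window or of adapter ligation would change fragment lengths.

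The members, lists and tests were chosen with earlier results of these data known. Gene context came from GENCODE M21. Counts with 10 or more reads in total (fragments: in each library) were tested with edgeR 4.0.16 (glmQLFit, glmQLFTest; diffSpliceDGE for length against isoacceptor) in R 4.3.3, Alkbh3-/- against wild type, with class sums as library size and Benjamini-Hochberg adjustment at 0.05. With 1 wild type library, the spread was estimated between the 2 Alkbh3-/- libraries and assumed for both genotypes. Named were all copies (the top 5 and lowest 2 by reads with values), lengths of 1% or more, and the 3 isoacceptors nearest in ratio and in length profile. Alternatives were TMM, other library sizes, DESeq2 1.42.0, other filters, edgeR's older method, the fragment tables, minus-strand copies of set 1 alone, and each Alkbh3-/- library left out.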

Additional observations from a re-analysis of the deposited data

How the results depend on the processing

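The Glu-CTC difference kept its direction and passed under all 10 settings tested (log2 0.84 to 1.18, adjusted p 8.6e-09 to 0.047 by edgeR or DESeq2). It was 0.82 to 0.90 with 1 Alkbh3-/- library left out. Those 10 settings include the main fit and, added after seeing the data, the minus-strand copies of set 1 alone (log2 0.87). These copies hold part of the same reads, so that setting is not a separate check. The count of Glu-CTC copies called, 9, became 0 with library size without miRNA, chosen after seeing the data, where 11 copies were called in all. The 3 called fragments became 8 with TMM, 5 with library size from the table tested, 8 with DESeq2, 2 without a filter and 2 without miRNA. The 1 called length share became 0 of 23 fragments with 50 reads in each library (0 at an unadjusted p under 0.05), 0 with the older method (1 unadjusted) and 2 with the first end class only. tRNA-Glu-CTC-4-1 turned to -0.029 without library B and was 0.39 without library A. The causes were not tested. Without 1 Alkbh3-/- library, the difference from wild type was 0.299 to 0.578 nt for mean length, -7.21 to -4.89 points for 26 to 30 nt, -11.2 to -3.86 for 31 nt, 3.67 to 10.04 for 33 nt, 4.19 to 8.20 for 34 nt and longer, and 0.132 to 0.451 for 33 per 31 nt reads. Over whole tables, the 11 isoacceptors called (3 higher, 8 lower) became 3 without miRNA (1 and 2), 3 with DESeq2 (2 and 1), 5 with the older method (1 and 4) and 9 with library size from the table (4 and 5). The 36 copies called (9 higher, 27 lower) became 23 with TMM (9 and 14), 21 with library size from the table (10 and 11), 11 without miRNA (0 and 11) and 18 with DESeq2 (12 and 6). The 13 fragments called (7 higher, 6 lower) became 48 with TMM (27 and 21), 18 with library size from the table (14 and 4), 6 without miRNA (4 and 2), 32 with DESeq2 (26 and 6) and 4 without a filter (3 and 1). The 22 length shares called became 5 with 50 reads in each library, 34 with 10 reads in total and 1 with the older method. No paired analysis was possible because the wild type group is 1 library without a replicate number.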

Other observations

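The unequal reads of plus-strand and minus-strand copies were also looked at in the other tRNA sets, after the pattern in Glu-CTC had been seen. A set was taken if it had copies on both strands and at least 1000 wild type counts per copy on average. Besides Glu-CTC, such sets belonged to Glu-TTC, Gly-GCC, His-GTG, Lys-CTT, Lys-TTT and Val-CAC. Of these 9 sets, 7 had unequal numbers of copies on the strands, and in 7 of 7, Glu-CTC set 1 among them, the strand with fewer copies had more wild type counts per copy. In His-GTG set 2, with 3 plus-strand and 5 minus-strand copies, the plus-strand mean was 1.72 times the minus-strand mean in wild type, 1.75 in A and 1.72 in B. In Val-CAC set 2, with 4 plus-strand copies and 1 on the minus strand, the ratio was 0.444, 0.458 and 0.468. In Gly-GCC set 2, with 3 and 5 copies, it was 1.10, 1.09 and 1.09. The copies of a set share a mature sequence, and the cause of the pattern was not tested.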
